A study of Mus musculus with 29 samples.

Results

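The change that goes with an active MLL-ENL fusion was compared between 2 blood-forming organs of the mouse. The comparison is a difference of differences: the change in bone marrow, which is the proliferation state minus wild type, less the change in spleen, which is the early stage minus wild type. The 4 groups were taken from the labels and hold 16 of the 29 arrays of the series. They comprise 4 MLL-ENL-ERtm marrows in the proliferation state, 4 wild-type marrows, 3 MLL-ENL-ERtm spleens at the early stage and 5 wild-type spleens. All mice, wild type included, ate tamoxifen at 300 mg/kg chow. The proliferation marrows and the early spleens had 7 months of it, the wild-type marrows 7 months in 3 mice and 8 months in 1, and the wild-type spleens 8, 9, 11, 11 and 24 months. By the labels, cells of the proliferation marrow divided strongly while their DNA damage response was low, and in the early spleen both division and that response were induced. ERtm, a part of the oestrogen receptor changed to answer to tamoxifen, leaves the fusion protein dependent on that drug. The cells and the promoter in which the fusion is expressed, the number of founder lines and whether any marrow and spleen came from the same mouse are not given in the sources used here. The labels speak of primary cells of the tissue and name no sort, so an organ's array reads a mixture of cell types.

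MLL, encoded by Kmt2a, is a histone methyltransferase that keeps homeobox genes of the Hoxa cluster active in blood stem and progenitor cells. Its leukaemic fusions, such as that with ENL (encoded by Mllt1), hold Hoxa9, Hoxa10 and the partner gene Meis1 at high levels, which keeps myeloid progenitors immature and dividing. In the adult mouse the marrow is the main site of granulocyte and B cell formation, while the spleen holds mature lymphocytes and tissue macrophages and can take up myeloid and red cell formation under stress.

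The promoters of 4 primary granule genes are shown because 5 of the 7 genes of their list had a called difference, all negative. Primary granule proteins are made by promyelocytes, the early neutrophil precursors: Elane encodes neutrophil elastase, Prtn3 proteinase 3, Ctsg cathepsin G and Mpo myeloperoxidase. The sequences are from RefSeq (GRCm38.p6), 5′ to 3′ on the strand of the gene, and end at the base before the gene's start. They lie at chr10:79886192-79886311 (plus strand) for Elane, chr10:79879547-79879666 (plus strand) for Prtn3, chr14:56102575-56102824 (minus strand) for Ctsg and chr11:87793534-87793783 (plus strand) for Mpo, with 120 bases shown for Elane and Prtn3 and 250 for Ctsg and Mpo. Capitals mark GAGGAAG, a letter pattern recognised by PU.1 and related Ets factors, which was chosen after the values were seen and searched on both strands of the 250 bases before each start.
Elane: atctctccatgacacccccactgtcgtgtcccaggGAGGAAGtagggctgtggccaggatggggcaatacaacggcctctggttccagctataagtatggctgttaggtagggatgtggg
Prtn3: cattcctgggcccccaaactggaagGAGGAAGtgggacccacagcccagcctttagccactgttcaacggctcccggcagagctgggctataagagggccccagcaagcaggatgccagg
Ctsg: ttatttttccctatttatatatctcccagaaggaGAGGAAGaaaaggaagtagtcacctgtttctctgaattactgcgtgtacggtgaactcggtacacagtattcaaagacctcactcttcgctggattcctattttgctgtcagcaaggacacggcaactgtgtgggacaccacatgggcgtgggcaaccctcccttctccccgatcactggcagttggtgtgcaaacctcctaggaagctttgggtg
Mpo: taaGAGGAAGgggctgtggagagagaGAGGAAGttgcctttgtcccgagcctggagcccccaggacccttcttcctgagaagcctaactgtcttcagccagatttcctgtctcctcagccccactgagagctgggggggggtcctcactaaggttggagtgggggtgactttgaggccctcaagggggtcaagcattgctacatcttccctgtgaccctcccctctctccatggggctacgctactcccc

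The pattern was in 4 of the 6 primary granule genes with a promoter in the table (66.7%), in 5 of 14 late neutrophil genes (35.7%) and in 1058 of 9888 genes of the array (10.7%). It was also in 5 of 10 tissue macrophage genes (50%), a list that fell in spleen, in 4 of 9 megakaryocyte and platelet genes (44.4%) and in 3 of 7 plasma cell genes (42.9%). Of 6 other patterns searched, that of C/EBP (TTGCNNAA), also an addition to the planned patterns, was in 1 of the 6 primary granule promoters. None of the 6 held that of GATA factors (AGATAA or TGATAA, or either with G as its last letter), of CACCC-binding factors (CCACACCC), of E2F (TTTCGCGC and 3 variants of it), of Ebf1 or of Hoxa9 with Meis or Pbx (TGATTTAT or TGATTTAC). Among genes whose change was lower in marrow than in spleen it was in 39 of 250 promoters (15.6%), and among genes whose change was higher in marrow in 67 of 467 (14.3%). A match describes the letters in this window and says nothing of binding.

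The values are log2 probe set summaries, and the tissues were normalized apart: the median of an array was 8.19 to 8.22 on the marrow side and 6.82 to 6.90 on the spleen side. Levels are therefore compared within a tissue, and only changes between tissues. A gene is called where its adjusted p from limma is under 0.05, over 12394 genes. The median standard error of a gene was 0.24 for the difference of changes, 0.17 for the marrow change and 0.17 for the spleen change. A gene is termed dim in a tissue where both group means lie under 7.24 in marrow or 5.65 in spleen, which is 1 unit above the lower quartile, and a change there is not taken as measured. The measured members of a list are those on the array, and of 160 called in spleen 5 were dim there, while none of 24 called in marrow was dim there. Lists of other cell types were high on a few arrays, and where that RNA came from was not tested. The mean of 18 adipocyte and muscle genes was 2.64 above the wild-type mean in proliferation marrow 1, against -0.18 to 0.40 in the other marrow arrays used. The mean of 17 stromal matrix genes was 1.68 above the wild-type mean in proliferation marrow 1 and 1.33 above it in wild-type marrow 2. The mean of 16 pancreas acinar genes exceeded the wild-type mean by 0.63 in early spleen 1, and in wild-type spleen 3, which itself raises that mean, by 4.59. Wild-type spleen 5 lay at 0.25 for these genes, and the other 5 spleens at -1.75 to -1.39. Proliferation marrow 1, early spleen 1 and wild-type spleen 3 are termed the 3 set-apart arrays. Results are given below also without them where that ends a call, and once without wild-type spleen 5 as well. Xist, an RNA of cells with an inactive X chromosome, was high in 4 of 4 proliferation and 2 of 4 wild-type marrows, and in 1 of 3 early and 2 of 5 wild-type spleens. In bulk samples, fewer cells of a type and less RNA per cell cannot be told apart.

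Spleen and marrow changed differently at 869 genes (7.01% of the genes tested). The change was higher in marrow for 564 genes (4.55%) and lower in marrow for 305 genes (2.46%), and 551 of the 869 differed by at least 1 log2 unit. Positive differences were thus 64.9% of the calls, against 51.4% after quantile normalization of all arrays together, 46.1% after scaling to a common interquartile range and 48.8% with array weights. Most of these differences lay with the spleen: 743 of 869 (85.5%) had the larger change there, and 126 had it in marrow. In early spleen 809 genes rose (6.53%) and 957 fell (7.72%), while in proliferation marrow 65 rose (0.524%) and 40 fell (0.323%). The 564 genes with the higher change in marrow were mostly genes that fell in spleen, 433 of them, and none of them rose there. The 305 genes with the lower change in marrow were mostly genes that rose in spleen, 281 of them, and 1 fell there. The shares over all genes given here stand beside every list count below. As 0.847% of genes were called in marrow, a list without a marrow call is near that share, which is no result about the list.

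The genes called in spleen moved little in marrow. The 809 genes that rose in early spleen had a median change of 0.17 in marrow, against 0.80 in spleen, and the 957 that fell had a median of 0.01 in marrow, against -0.86 in spleen. In the other direction, the 65 genes that rose in marrow had a median change of 0.97 there and 0.20 in spleen. The 40 that fell in marrow had medians of -1.29 in marrow and -1.33 in spleen, and 29 of them were called lower in spleen. Each of these sets was chosen by its call in 1 organ of the same data, which by itself favours a larger median in that organ. Across all 12394 genes the marrow and spleen changes had a Pearson r of 0.17 and a Spearman rho of -0.0014, a description across genes that are not independent. A call in spleen alone is no difference between the organs: of 1713 genes called in spleen and not in marrow, the difference itself was not called for 1007 (58.8%).

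The count of marrow calls is the least settled of these. It was 22 without the 3 set-apart arrays, and 22 without wild-type marrow 3 alone, while the difference of changes was called for 365 and 699 genes in these fits. Without wild-type spleen 5 in addition to the 3 arrays, a fit chosen after the data were seen, 178 genes were called for the difference, 20 for the marrow and 878 for the spleen. Of 73 called differences of named genes, 25 were lost without the 3 arrays and 32 without the 4. The further 7 were Cd34 (-1.73, adjusted p = 0.079), Ctss (0.91, 0.078), Cd28 (2.24, 0.067), Sh2d1a (3.21, 0.053), Gzmb (2.12, 0.10), Ccr3 (2.19, 0.066) and Egr2 (2.08, 0.073), with the adjusted p second in each bracket. The mast cell genes Mcpt4, Cma1 and Cpa3 were highest in wild-type spleen 5. Without that array alone Mcpt4 and Cma1 were called, and Cpa3 was not (2.44, adjusted p = 0.069).

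**Figure D1:**
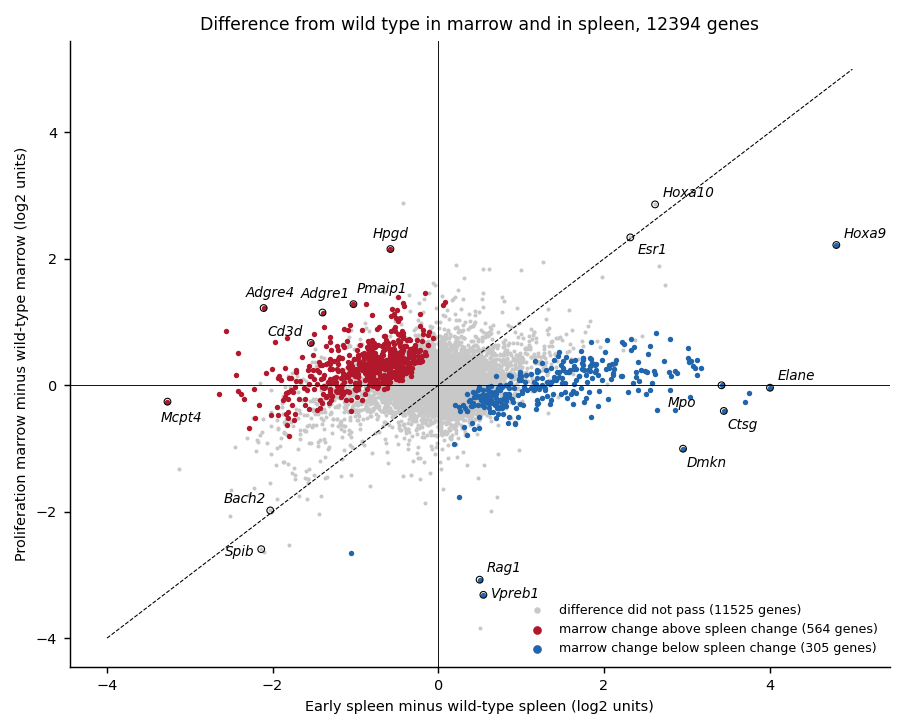
Each point is 1 of 12394 genes, with its change in early spleen on the horizontal axis and its change in proliferation marrow on the vertical axis, both in log2 units against wild type of the same organ. Red points (564) have the higher change in marrow, blue points (305) the lower, and grey points did not pass. The dashed line marks equal changes. The blue points spread to the right along the zero line of the marrow axis, where Elane, Mpo and Ctsg lie, while Hoxa10 and Esr1 sit near the dashed line.

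The primary granule genes rose in spleen and did not pass in marrow. All 7 measured members were higher in early spleen (median change 3.45), none passed in proliferation marrow (median -0.04), and the difference of changes was called for 5 of 7, all negative (median -3.85, against -0.03 over all genes). Elane read 13.17, 12.44, 12.79 and 12.76 in proliferation marrow and 13.09, 13.48, 12.48 and 12.26 in wild-type marrow. It read 12.72, 11.77 and 13.13 in early spleen, against 9.33, 9.20, 8.09, 7.94 and 8.10 in wild-type spleen. The marrow groups overlapped, and every early spleen lay above every wild-type spleen, as was so for 12.4% of all genes. The Elane change was -0.04 ± 0.37 in marrow (SE, n = 4 and 4) and 4.00 ± 0.38 in spleen (n = 3 and 5), a 16.1-fold rise there, and the difference was -4.04 ± 0.53 (95% interval -5.13 to -2.96, adjusted p = 5.5e-05).

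Mpo, whose product makes hypochlorous acid from hydrogen peroxide, read 14.78, 14.80, 14.95 and 14.85 in proliferation marrow and 14.85, 14.85, 14.81 and 14.88 in wild-type marrow. In early spleen it read 13.80, 13.25 and 14.07, against 11.12, 11.05, 9.66, 9.87 and 9.73 in wild-type spleen. Its level in marrow thus lay close to that of the brightest probe sets in both groups, while the spleen groups were far apart. The difference was -3.42 ± 0.36 (adjusted p = 6.4e-06).

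The serine proteases Prtn3 and Ctsg gave differences of -3.87 ± 0.41 and -3.85 ± 0.48, from spleen changes of 3.75 and 3.45 and marrow changes of -0.12 and -0.41. Ms4a3, a membrane protein of granulocyte and monocyte precursors, gave -3.97 ± 0.55, with a spleen change of 3.70 and a marrow change of -0.27. For all 5 genes, wild-type spleens 1 and 2 were the brightest of the 5 wild-type spleens, and early spleen 2 was the dimmest of the 3 early spleens. Wild-type spleen 1 is that of 24 months. The other members, Gfi1, a repressor needed for neutrophil development, and Serpinb1a, an inhibitor of neutrophil proteases, rose in spleen by 2.12 and 0.94, and their differences of -1.80 and -0.83 did not pass (adjusted p = 0.056 and 0.21).

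Late neutrophil genes gave the same pattern with smaller values. Of 15 measured, 14 rose in spleen (median 1.50), none passed in marrow (median 0.20), and 12 had a called difference, all negative (median -1.39). Ltf, which encodes the iron-binding granule protein lactoferrin, read 15.04, 15.14, 15.09 and 15.12 in proliferation marrow and 15.02, 14.99, 15.04 and 15.10 in wild-type marrow. It read 13.88, 13.88 and 14.23 in early spleen, against 12.59, 12.54, 11.57, 12.43 and 11.91 in wild-type spleen, and its difference was -1.74 ± 0.26 (adjusted p = 0.00026).

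Cd177, a surface glycoprotein of neutrophils, had the largest difference of this list, -2.69 ± 0.42, with a spleen change of 2.89. The difference was -1.39 ± 0.22 for Chil3, a chitinase-like protein, and -1.34 ± 0.20 for Lcn2, which binds bacterial siderophores. Of these 15 genes 11 lay within 1 unit of the highest marrow level (15.27) and so did Mpo among the primary granule genes; the part of this limit of the scale in their small marrow changes was not tested. Elane and Ms4a3 lay 2.44 and 2.48 below that level. Prtn3 and Ctsg lay nearer to it. Prtn3 read 13.76 to 14.04 in proliferation marrow and 13.85 to 14.23 in wild-type marrow. Ctsg read 13.12 to 13.63 and 13.62 to 14.15 in these groups. Whether the probe sets of these genes were limited there was not tested either. Without the 3 set-apart arrays, the difference was called for the same number of primary granule genes, 5, and for 10 late neutrophil genes.

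Of the progenitor surface genes, 4 of 11 rose in spleen and 3 fell, none passed in marrow, and 3 had a called difference. Cd34, a sialomucin of early progenitors, read 9.08, 9.37, 10.33 and 9.46 in proliferation marrow and 9.99, 9.55, 9.47 and 9.64 in wild-type marrow. The early spleens read 8.65, 7.87 and 7.76, against 6.37, 5.86, 5.03, 5.85 and 5.89 in wild-type spleen. The marrow groups overlapped and the spleen groups did not, with a difference of -2.39 ± 0.46 (adjusted p = 0.0022). Prom1, a pentaspan membrane protein of progenitors, gave -2.66 ± 0.42, with changes of -0.14 in marrow and 2.51 in spleen. Cd48, a surface ligand of the SLAM family, went the other way, with 0.36 in marrow, -0.80 in spleen and a difference of 1.16 ± 0.31 (adjusted p = 0.020). Its call was lost without early spleen 1 or 2 (adjusted p = 0.061 and 0.057) and without the 3 set-apart arrays (1.08, adjusted p = 0.12).

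**Figure D2:**
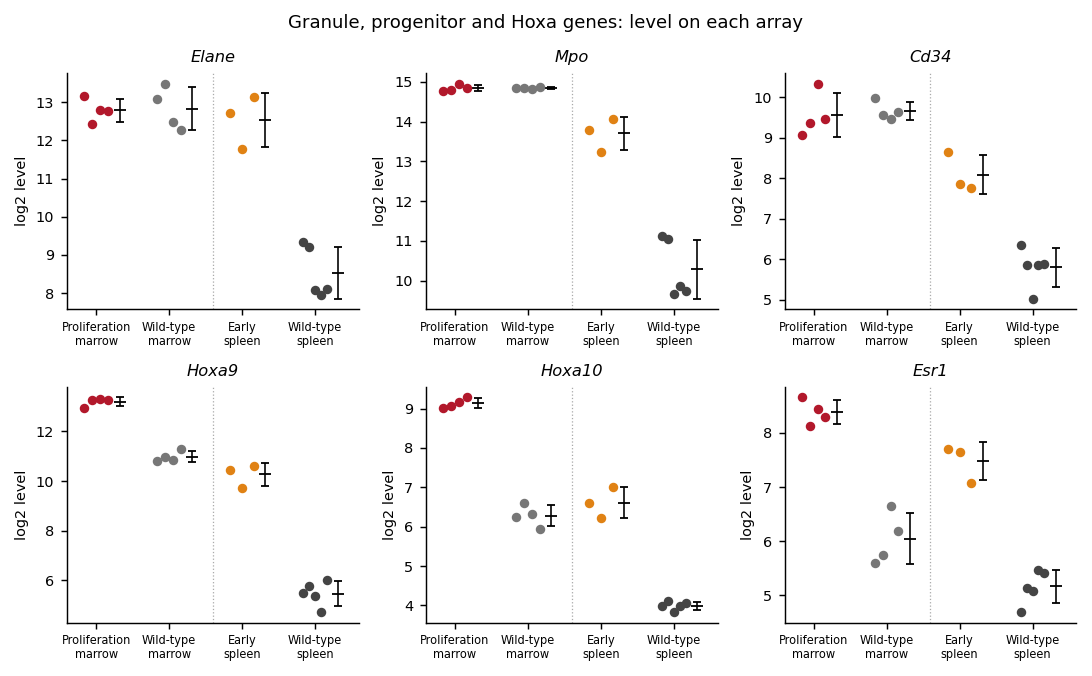
Points show the log2 level of 6 genes on each of the 16 arrays, and bars the group mean and its SD; levels are comparable within marrow (left of the dotted line) and within spleen (right of it). Elane, Mpo and Cd34 overlap between the marrow groups and separate in spleen, while Hoxa9, Hoxa10 and Esr1 separate in both organs.

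Esr1, the oestrogen receptor gene whose hormone-binding part the construct carries, rose in both organs. Whether its probe set reads the construct is not given in the sources used here. Esr1 read 8.66, 8.13, 8.45 and 8.30 in proliferation marrow and 5.60, 5.75, 6.65 and 6.18 in wild-type marrow. It read 7.71, 7.66 and 7.08 in early spleen, against 4.70, 5.14, 5.09, 5.48 and 5.42 in wild-type spleen. Every fusion array lay above every wild-type array of its organ, with changes of 2.34 ± 0.20 in marrow and 2.32 ± 0.21 in spleen. The difference was 0.02 ± 0.29 (95% interval -0.57 to 0.61). All wild-type arrays lay under the dim limits of 7.24 in marrow and 5.65 in spleen, so both changes start near background. The part of this in the small difference was not tested. Kmt2a and Mllt1, the genes of the fusion partners, passed in neither organ, with differences of 0.62 ± 0.27 and -0.17 ± 0.21 (adjusted p = 0.19 and 0.68).

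Of 9 genes of the Hoxa cluster on the array, 5 were above the dim range in marrow, where 3 rose, and 4 in spleen, where all 4 rose. Hoxa9 alone had a called difference. Hoxa9, a homeobox factor of progenitor self-renewal, read 12.93, 13.29, 13.30 and 13.28 in proliferation marrow and 10.81, 10.96, 10.86 and 11.30 in wild-type marrow. It read 10.46, 9.74 and 10.63 in early spleen, against 5.47, 5.77, 5.35, 4.73 and 6.02 in wild-type spleen. It rose in both organs, by 2.22 ± 0.33 (4.65-fold) in marrow and 4.81 ± 0.34 (28.0-fold) in spleen, with no overlap in either, and the difference was -2.59 ± 0.47 (95% interval -3.55 to -1.63, adjusted p = 0.0013). The wild-type spleens lay on both sides of the dim limit of 5.65, so the rise in spleen starts near background. A second Hoxa9 probe set gave a smaller difference of -1.27 (adjusted p = 0.028 over all probe sets), with a marrow change of 0.68 that did not pass (adjusted p = 0.25).

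Hoxa10, its neighbour in the cluster, had no called difference. It read 9.03, 9.06, 9.18 and 9.29 in proliferation marrow and 6.24, 6.59, 6.33 and 5.95 in wild-type marrow. In early spleen it read 6.61, 6.22 and 7.01, against a mean of 4.00 ± 0.10 (SD, n = 5) in wild-type spleen, where the values lie among the dim ones. The wild-type marrows also lay under the dim limit of 7.24. Both changes thus start near background, which limits a comparison with Hoxa9. The changes were 2.86 ± 0.35 in marrow and 2.62 ± 0.36 in spleen, and the difference was 0.24 ± 0.50 (95% interval -0.79 to 1.28). Hoxa5 rose by 1.72 ± 0.25 in marrow and 1.97 ± 0.26 in spleen, with a difference of -0.26 ± 0.36. Its wild-type marrows also lay under 7.24. Hoxa7 was 0.62 ± 0.18 higher in marrow, which did not pass (adjusted p = 0.10), and rose by 1.28 ± 0.18 in spleen, and its difference of -0.66 ± 0.25 did not pass (adjusted p = 0.13). Hoxa3 and Hoxa4 were dim in spleen, where their changes of 0.49 and 0.54 passed the test but are not taken as measured, and Hoxa4 was dim in marrow as well.

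Meis1, the DNA-binding partner of Hoxa9, rose by 0.91 ± 0.17 in marrow (adjusted p = 0.013) and by 1.34 ± 0.18 in spleen, with a difference of -0.43 ± 0.25 (adjusted p = 0.34). Of the 11 genes measured from its list of Hoxa9 partners and progenitor regulators, 4 had a called difference. Myb, a progenitor transcription factor, gave -1.34 ± 0.35 from changes of 0.20 in marrow and 1.54 in spleen. Mef2c, a factor of B cell and myeloid progenitors, gave 1.46 ± 0.29 from 0.36 in marrow and -1.10 in spleen. Jmjd1c, a putative histone demethylase, and Id2, an inhibitor of helix-loop-helix factors, gave 0.85 ± 0.21 and 1.21 ± 0.34. Without the 3 set-apart arrays, Mef2c alone of these 4 passed, and Myb had -0.96 (adjusted p = 0.19), Id2 0.97 (adjusted p = 0.19) and Jmjd1c 0.88 (adjusted p = 0.063). Myb also missed without early spleen 1 alone (-1.21, adjusted p = 0.061). The call came from 1 of 3 probe sets for Myb, where the others gave -1.04 and -1.14 (adjusted p = 0.15 and 0.12), and for Id2, where they gave 0.61 and 0.43.

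In all, 53 genes were called in both organs, which is 50.5% of the marrow calls and 3% of the spleen calls. Of these, 46 had the same direction, 17 higher and 29 lower in both, and 7 were higher in marrow and lower in spleen. None was lower in marrow and higher in spleen. Of the 46 with a shared direction, 2 had a called difference: Hoxa9 and D13Ertd608e, a transcript without an assigned function here that was chosen for naming after its values were seen. D13Ertd608e fell by 2.65 ± 0.27 in marrow and by 1.05 ± 0.28 in spleen, with a difference of -1.60 ± 0.39 (adjusted p = 0.012). That call was lost without the 3 set-apart arrays (-1.45, adjusted p = 0.093).

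Genes of B lymphocytes were 4 of the 6 named genes that fell in both organs. Spib, an Ets factor of B cells and plasmacytoid dendritic cells, read 7.46, 8.49, 8.29 and 9.20 in proliferation marrow and 11.47, 10.11, 11.22 and 11.01 in wild-type marrow. It read 9.53, 10.01 and 8.19 in early spleen, against 11.51, 11.27, 11.13, 11.34 and 11.65 in wild-type spleen. The groups did not overlap in either organ, and the changes were -2.59 ± 0.55 and -2.14 ± 0.57. The marrow and spleen changes were -2.08 and -2.51 for Fcrla, an Fc receptor-like protein of B cells, and -1.98 and -2.03 for Bach2, a repressor that delays plasma cell formation. For Ebf1, which sets the B cell fate, they were -1.79 and -1.95. Adjusted over all probe sets, the marrow p from limma was 0.029 for Spib and 0.022 for Fcrla and for Bach2. For Ebf1 it was 0.058, and 0.063 and 0.12 for its other probe sets, so none of them passed there. The marrow calls of these genes are not given for the fits without arrays. The differences of Spib, Fcrla, Bach2 and Ebf1 lay between -0.46 and 0.44 with standard errors of 0.57 to 0.79. Cd5l, a secreted protein of tissue macrophages, fell by 2.52 ± 0.44 in marrow and fell by 1.80 ± 0.45 in spleen.

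Of 15 mature B cell genes, 5 fell in marrow (median -1.55) and 15 in spleen (median -1.81), and 3 had a called difference, all positive. Fcrl1, another Fc receptor-like protein of B cells, gave the largest: its change was 0.19 ± 0.23 in marrow and -2.08 ± 0.23 in spleen, a difference of 2.27 ± 0.32 (adjusted p = 0.00017). Ltb, which encodes lymphotoxin beta, and Cd37, a tetraspanin of B cells, gave 1.49 ± 0.43 and 0.81 ± 0.23. Both missed without the 3 set-apart arrays (1.36, adjusted p = 0.15, and 0.84, adjusted p = 0.097).

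Of 17 early B precursor genes, 6 fell in marrow (median -1.39), and 10 fell and 1 rose in spleen (median -1.37), 1 of those that fell being dim there. The difference was called for 5, all negative and all dim in 1 of the organs. Over the whole list the median difference was 0.05, and 9 of the 17 genes had a positive one. Vpreb1, part of the surrogate light chain that tests new heavy chains, read 6.99, 6.56, 6.61 and 6.27 in proliferation marrow and 9.93, 9.30, 9.73 and 10.73 in wild-type marrow. Every proliferation marrow lay below every wild-type marrow, as was so for 2.28% of all genes. It read 4.78, 5.49 and 4.64 in early spleen, against 4.84, 4.44, 4.08, 4.31 and 4.45 in wild-type spleen, which is dim. Vpreb1 fell by 3.32 ± 0.43 in marrow, and its difference of -3.86 ± 0.62 (adjusted p = 0.00040) therefore rests on the marrow. The same holds for Igll1, the second part of the surrogate light chain (marrow -1.77 ± 0.24, difference -2.02 ± 0.34), and Rag1, a recombinase of antigen receptor genes (marrow -3.08 ± 0.59, difference -3.57 ± 0.85), both dim in spleen. A second Igll1 probe set gave a marrow change of -0.09 and a difference of -0.21 (adjusted p = 0.67), neither of which passed. Rag1 was higher in proliferation marrow 3 (7.27) than in the other proliferation marrows (5.36 to 5.59), and its difference missed without the 3 set-apart arrays (-2.86, adjusted p = 0.12). Erg, an Ets factor of stem cells that was also in this list, was dim in marrow and rose by 1.29 ± 0.18 in spleen, with a difference of -1.34 ± 0.26. Wild-type marrow 2 read lowest of the wild-type marrows for Vpreb1, Igll1, Rag1, Spib, Fcrla, Bach2 and Ebf1.

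The named genes called in opposite directions were Adgre4, Adgre1, Pmaip1, Hfe, Slc11a1 and Csf1r, all higher in marrow and lower in spleen. Most of these marrow calls lie near the threshold. Adjusted over all probe sets, the marrow p from limma was 0.063 for Adgre4, 0.057 for Hfe and 0.054 for Slc11a1. It was 0.044 for Pmaip1, 0.043 for Csf1r and 0.017 for Adgre1. Adgre1, which encodes the macrophage antigen F4/80, read 11.89, 12.20, 11.98 and 12.19 in proliferation marrow and 11.21, 10.86, 10.92 and 10.66 in wild-type marrow. It read 8.60, 8.64 and 7.81 in early spleen, against 9.53, 9.62, 9.95, 9.74 and 9.88 in wild-type spleen. The proliferation marrows lay above every wild-type marrow, as for 7.37% of all genes, and the early spleens below every wild-type spleen, as for 12.6% of all genes. The changes were 1.15 ± 0.22 and -1.40 ± 0.23, and the difference was 2.55 ± 0.32 (95% interval 1.90 to 3.20, adjusted p = 4.2e-05). Adgre4, a related adhesion receptor of myeloid cells, rose by 1.22 ± 0.30 in marrow and fell by 2.11 ± 0.31 in spleen, with a difference of 3.33 ± 0.43.

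Csf1r, the receptor for the growth factor of macrophages, read 14.24, 14.35, 13.94 and 14.32 in proliferation marrow and 13.32, 13.51, 13.31 and 13.24 in wild-type marrow. It read 11.76, 12.01 and 11.42 in early spleen, against 12.75, 12.28, 12.78, 12.67 and 12.78 in wild-type spleen. The fusion and wild-type arrays overlapped in neither organ, and the difference was 1.79 ± 0.28 (adjusted p = 0.00036). Slc11a1, a metal transporter of phagosomes, and Hfe, which takes part in iron sensing, gave differences of 2.01 ± 0.32 and 2.30 ± 0.31, with marrow changes of 0.95 and 0.92 and spleen changes of -1.06 and -1.38. Each of these 5 differences was called in all 16 fits that left out 1 array and without the 3 set-apart arrays. This concerns the differences, and the marrow calls of these genes are not given for those fits.

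Other myeloid genes were divided. Of 13 monocyte genes 2 rose in marrow, 6 rose and 3 fell in spleen, and the difference was positive for 3 and negative for 3. F13a1, a clotting factor made by monocytes, rose by 3.10 ± 0.25 in spleen, against 0.27 ± 0.25 in marrow, with a difference of -2.83 ± 0.35. Lyz2, the lysozyme of phagocytes, gave -0.69 ± 0.14, with its proliferation marrow mean 0.16 under the highest marrow level. Ctss, a lysosomal protease that trims antigens, gave 1.06 ± 0.21 from 0.24 in marrow and -0.82 in spleen.

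Of 16 tissue macrophage genes, 12 fell in spleen (median -1.73), while in marrow Adgre1 rose and Cd5l fell (median -0.46). The difference was called for 2, Adgre1 and Hmox1. Hmox1, which breaks down haem, read 9.46, 8.38, 8.30 and 8.77 in proliferation marrow and 8.97, 9.41, 8.64 and 8.77 in wild-type marrow. It read 10.53, 10.70 and 8.65 in early spleen, against 11.66, 11.15, 12.10, 11.74 and 11.57 in wild-type spleen. Early spleen 3 lay well below the other early spleens, and without it the difference of 1.46 ± 0.45 (adjusted p = 0.046) was 0.81 (adjusted p = 0.16). It was 1.39 (adjusted p = 0.10) without the 3 set-apart arrays. The same array was the dimmest of the early spleens for Spic, a factor of red pulp macrophages, and Marco, a scavenger receptor of the marginal zone, whose spleen changes were -2.23 ± 0.39 and -2.02 ± 0.54 and whose differences of 1.71 and 1.94 did not pass (adjusted p = 0.058 and 0.12).

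**Figure D3:**
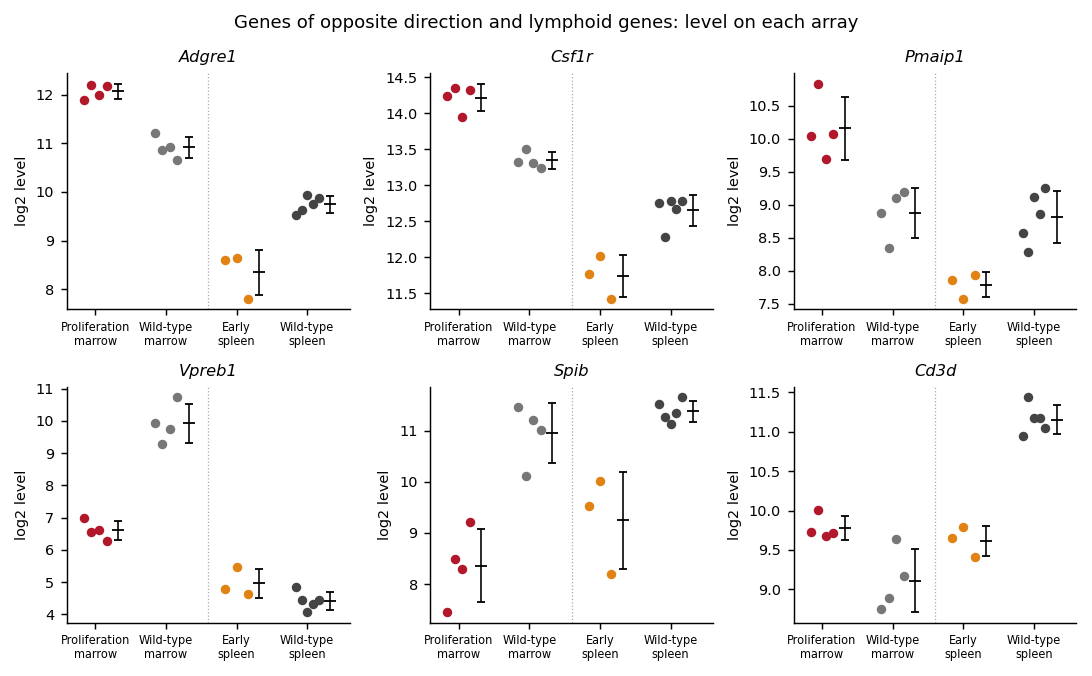
Points show the log2 level of 6 genes on each array, and bars the group mean and its SD, with marrow left of the dotted line and spleen right of it. Adgre1, Csf1r and Pmaip1 are higher than wild type in marrow and lower in spleen, Vpreb1 is lower in marrow and dim in spleen, Spib is lower in both organs, and Cd3d is lower in spleen.

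Hpgd, which inactivates prostaglandins, had the larger of its changes in marrow. It read 13.91, 13.84, 12.77 and 13.93 in proliferation marrow and 11.53, 11.57, 11.62 and 11.13 in wild-type marrow, without overlap. In early spleen it read 9.77, 9.68 and 10.17, against 9.95, 10.15, 10.91, 10.55 and 10.71 in wild-type spleen, with overlap. The changes were 2.15 ± 0.50 and -0.58 ± 0.51, and the difference of 2.73 ± 0.72 (adjusted p = 0.019) missed without the 3 set-apart arrays (2.47, adjusted p = 0.13). A second Hpgd probe set gave 1.41, which did not pass (adjusted p = 0.097).

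Adamdec1, a secreted metalloproteinase-like protein of mature macrophages and dendritic cells, had the largest positive difference of the genes tested, 3.43 ± 0.59. Its marrow change was 0.86 ± 0.41, with proliferation marrow 1 at 8.37 and the other proliferation marrows at 7.03 to 7.23, and its spleen change was -2.57 ± 0.42. Gpr137b, a lysosomal membrane protein, gave 2.32 ± 0.36 from 0.81 in marrow and -1.50 in spleen. Ptgis, the prostacyclin synthase, and Cdk14, a cyclin-dependent kinase of Wnt signalling, gave 2.60 ± 0.61 and 2.65 ± 0.40, but both were dim in marrow, and Ptgis missed without the 3 arrays (2.34, adjusted p = 0.063). For Cdk14, 1 of 3 probe sets had a call and another had the opposite sign.

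Mast cell genes were 3 of the 14 largest positive named differences. Of 15 mast cell, basophil and eosinophil genes, 3 had a called difference, all positive, 2 rose and 4 fell in spleen, and none passed in marrow. Mcpt4, a mast cell protease, read 5.41, 4.80 and 4.40 in early spleen, against 8.26, 7.87, 5.87, 8.39 and 10.29 in wild-type spleen, and was dim in marrow (5.62 to 6.07 in proliferation marrow and 5.75 to 6.41 in wild-type marrow). The early spleens were below all wild-type spleens and these spread widely, with wild-type spleen 5 highest and wild-type spleen 3 lowest. Mcpt4 had a difference of 3.01 ± 0.75, and Cma1, a chymase with the same order of wild-type spleens, had 2.34 ± 0.57 and was also dim in marrow. Cpa3, the mast cell carboxypeptidase, was measured in both organs: it read 9.76, 10.23, 11.02 and 8.82 in proliferation marrow and 9.04, 9.35, 9.66 and 9.74 in wild-type marrow. In early spleen it read 7.01, 5.52 and 5.46, against 8.22, 7.92, 6.71, 8.89 and 10.36 in wild-type spleen. Its difference of 2.93 ± 0.86 (adjusted p = 0.038) was called in 5 of the 16 fits that left out 1 array. Ccr3, the eotaxin receptor of eosinophils, gave 2.58 ± 0.51 and was dim in marrow.

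T cell genes fell in spleen and did not pass in marrow. Of 14 measured, 12 fell in early spleen (median -1.45), none passed in proliferation marrow (median -0.19), and 6 had a called difference, all positive (median 1.26). Over all genes 7.72% fell in spleen, 0.847% were called in marrow and 4.55% had a positive called difference. Cd3d, a chain of the T cell receptor complex, read 9.73, 10.01, 9.68 and 9.71 in proliferation marrow and 8.75, 8.88, 9.64 and 9.17 in wild-type marrow. Early spleens were at 9.65, 9.79 and 9.41, against 10.94, 11.44, 11.17, 11.17 and 11.05 in wild-type spleen. All proliferation marrows lay above the wild-type marrows, though the marrow change of 0.67 ± 0.24 did not pass (adjusted p = 0.23), and the spleen change was -1.54 ± 0.25. The difference was 2.21 ± 0.35 (adjusted p = 0.00038).

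The costimulatory receptor Cd28 gave a difference of 2.17 ± 0.49, with changes of -0.06 in marrow and -2.22 in spleen. Cd8b1, a chain of the CD8 coreceptor, gave 1.40 ± 0.29 with -0.42 in marrow and -1.81 in spleen. Cd6, an adhesion receptor of T cells, gave 1.22 ± 0.32 with 0.13 and -1.08. Cd6 missed without early spleen 3 (0.98, adjusted p = 0.071), and Cd8b1 without the 3 set-apart arrays (1.21, adjusted p = 0.051). Sh2d1a, an adaptor of SLAM receptors, gave 2.50 ± 0.72 and was dim in marrow. Of 15 NK and cytotoxic genes, 10 fell in spleen, none passed in marrow and 2 had a called difference. Gzmk and Gzmb, which encode granzymes, gave 1.71 ± 0.49 and 1.91 ± 0.58, and these calls held in 9 and 2 of the 16 fits without 1 array.

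All 8 MHC class II genes measured had a positive difference (median 1.14), with 4 called lower in spleen and none in marrow, but 1 difference passed, that of H2-DMa, which loads peptides onto class II molecules (1.43 ± 0.34, adjusted p = 0.0099). It missed without the 3 set-apart arrays (1.41, adjusted p = 0.060). Of 19 interferon-induced genes 6 fell in spleen and 1 in marrow, and 1 had a called difference, Gbp2, a guanylate-binding protein (1.97 ± 0.51). Of 20 inflammatory cytokine and chemokine genes 5 fell in spleen, 2 of them dim there, 1 rose and none passed in marrow, and 1 had a called difference, Il18, a cytokine processed by inflammasomes (1.47 ± 0.42). Counts of 1 in 19 and 1 in 20 are near the 4.55% of all genes called positive and are no result about these lists. Gbp2 had 2.00 (adjusted p = 0.076) and Il18 1.38 (adjusted p = 0.12) without the same 3 arrays. Of 19 immediate early genes 3 fell in spleen and none passed in marrow, and 4 had a called positive difference. These were Egr2 (1.96 ± 0.47) and Klf2 (1.51 ± 0.40), both zinc finger factors, Ier5 (1.76 ± 0.28), a regulator of heat shock factor, and Btg1 (1.31 ± 0.21), an antiproliferative protein. Klf2 missed without the 3 arrays (1.45, adjusted p = 0.10).

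Genes of the p53 pathway had their called differences in the same direction. Of 20 targets and inhibitors measured, 6 had a called difference, all positive (median 0.51), against 4.55% of all genes called positive, with 1 called higher in marrow and 1 higher and 3 lower in spleen. Pmaip1, which encodes the death-promoting protein Noxa, read 10.04, 10.83, 9.69 and 10.08 in proliferation marrow and 8.87, 8.34, 9.10 and 9.19 in wild-type marrow. It read 7.86, 7.58 and 7.94 in early spleen, against 8.56, 8.28, 9.12, 8.87 and 9.25 in wild-type spleen. It rose by 1.28 ± 0.29 in marrow and fell by 1.02 ± 0.30 in spleen without overlap in either, and the difference was 2.31 ± 0.42 (adjusted p = 0.0013).

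Zmat3, a zinc finger RNA-binding protein, Fas, a death receptor, and Ccng1, cyclin G1, gave 1.19 ± 0.28, 1.11 ± 0.29 and 0.95 ± 0.25. Without the 3 set-apart arrays Pmaip1 alone of the 20 passed, and Zmat3 had 1.14 (adjusted p = 0.074), Fas 0.86 (adjusted p = 0.18) and Ccng1 0.90 (adjusted p = 0.096). Fas and Ccng1 also missed without early spleen 1 (adjusted p = 0.063 and 0.065) or early spleen 2 (adjusted p = 0.053 for each). Cdkn1a, which encodes the cell cycle inhibitor p21, passed in neither organ, with 0.31 ± 0.25 in marrow, 0.50 ± 0.25 in spleen and a difference of -0.19 ± 0.35 (adjusted p = 0.81). Of 15 DNA damage checkpoint genes none had a called difference and 1 fell in spleen. Chek1, a kinase of the replication checkpoint, gave -0.66 ± 0.29 (adjusted p = 0.19).

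All 28 mitosis genes had a negative change in marrow (median -0.36, none called) and a positive change in spleen (median 0.42, 7 called). The difference was negative for all 28 (median -0.78) and called for 5. Of 29 DNA replication genes, all had a negative change in marrow (median -0.32) and 28 a positive one in spleen (median 0.26, 3 called), and 2 had a called difference. Cdc45, part of the replicative helicase, read 9.57, 9.79, 10.51 and 10.47 in proliferation marrow and 9.88, 10.19, 10.80 and 10.75 in wild-type marrow. It read 8.52, 8.56 and 8.46 in early spleen, against 7.63, 7.64, 7.53, 7.61 and 7.05 in wild-type spleen. The spleen groups did not overlap and the marrow groups did, and the difference was -1.34 ± 0.31 (adjusted p = 0.0076).

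Among mitosis genes, the spindle checkpoint kinases Ttk and Bub1b gave -1.08 ± 0.27 and -1.00 ± 0.28. Plk1, a kinase of mitotic entry, gave -1.24 ± 0.36, and Ndc80, part of the kinetochore, gave -0.97 ± 0.25. Mki67, the Ki-67 antigen of dividing cells, did not pass, with -0.09 ± 0.18 in marrow, 0.30 ± 0.19 in spleen and a difference of -0.39 ± 0.26 (adjusted p = 0.42). Proliferation marrow 1, the array high in adipocyte and muscle genes, was the dimmest proliferation marrow for Mki67, Plk1, Bub1b, Ttk, Ndc80 and Cdc45. Without it, early spleen 1 and wild-type spleen 3, none of the 28 mitosis and 29 replication genes had a called difference, and the medians were -0.57 and -0.32.

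**Figure D4:**
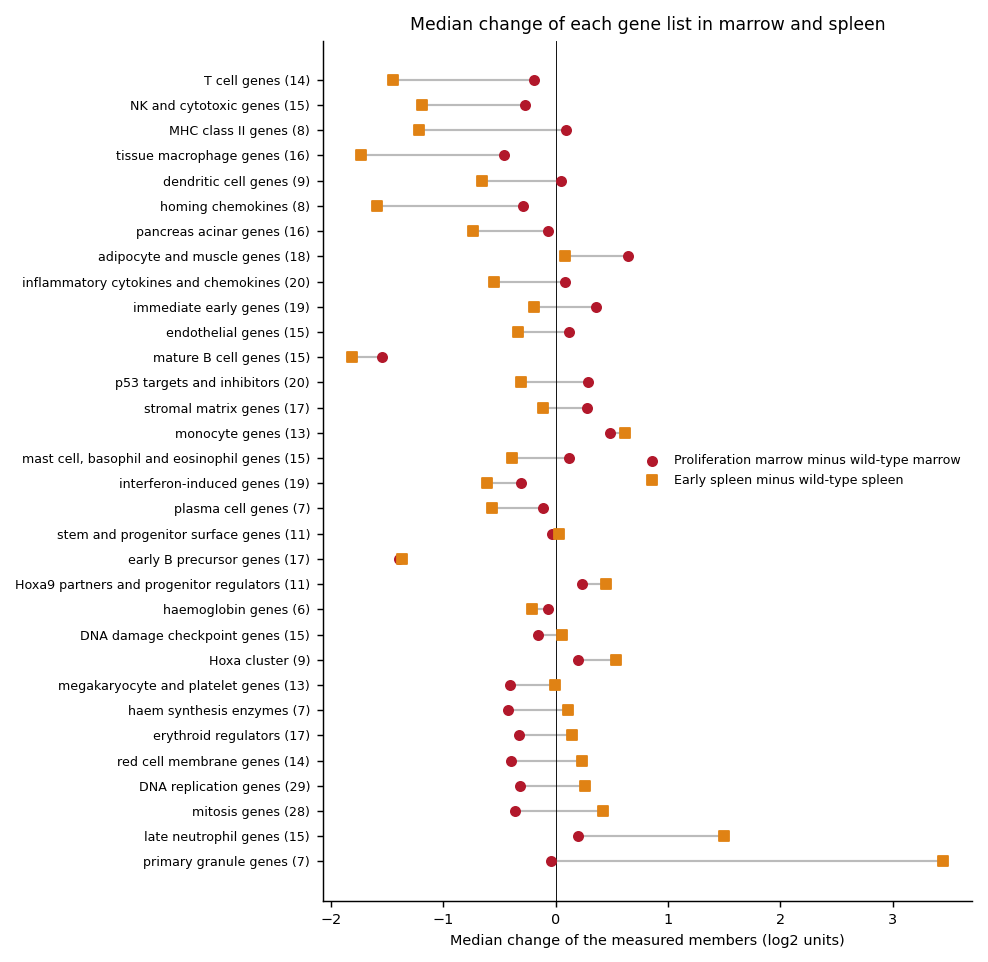
For 32 gene lists, with the number of measured members in brackets, the circle is the median change in proliferation marrow and the square the median change in early spleen, in log2 units against wild type of the same organ. The primary granule list has the widest gap, with medians of -0.04 in marrow and 3.45 in spleen. The mature and early B cell lists are low in both organs, and the T cell and macrophage lists have medians of -0.19 and -0.46 in marrow and of -1.45 and -1.73 in spleen.

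None of 7 haem synthesis enzymes, 6 haemoglobin genes, 14 red cell membrane genes, 17 erythroid regulators and 13 megakaryocyte genes passed for the difference, against 7.01% of all genes called in either direction, and in the organs themselves a single erythroid regulator rose in spleen. The medians of the difference were -0.45, -0.10, -0.66, -0.50 and -0.42 in that order. The stromal matrix, endothelial, adipocyte and muscle, pancreas acinar, plasma cell and homing chemokine lists also held no called difference, though some changed within an organ. Of 8 homing chemokine genes, 4 fell and 1 rose in spleen and 1 fell in marrow. In spleen 2 of 7 plasma cell genes fell, 1 stromal matrix gene rose and 1 fell, and 1 endothelial gene fell. Of 9 dendritic cell genes, 2 fell in marrow and 3 in spleen, and 1 had a called difference, which was positive.

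Outside the lists, 7 of the 14 most negative named differences belonged to genes that rose in spleen. Dmkn, which encodes the secreted protein dermokine, read 7.54, 8.19, 8.59 and 8.20 in proliferation marrow and 8.81, 9.82, 8.93 and 8.97 in wild-type marrow. In early spleen it read 7.33, 7.29 and 8.35, against 5.11, 4.78, 4.17, 4.92 and 4.54 in wild-type spleen. Neither pair of groups overlapped, and the changes went in opposite directions, -1.00 ± 0.40 in marrow, which did not pass (adjusted p = 0.29), and 2.95 ± 0.42 in spleen. The difference was -3.96 ± 0.58 (adjusted p = 0.00020).

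Orm1, an acute phase protein, and Lbp, which carries bacterial lipopolysaccharide, gave -3.25 ± 0.61 and -2.88 ± 0.39, from spleen changes of 2.86 and 2.80. Lin28a, an RNA-binding protein that blocks the maturation of let-7, read 7.41, 6.92 and 8.39 in early spleen, against 5.12, 4.52, 4.14, 4.38 and 4.08 in wild-type spleen, and between 10.24 and 11.30 on all 8 marrow arrays. Its difference was -2.97 ± 0.56, but a second Lin28a probe set gave -0.37 (adjusted p = 0.56), with a spleen change of 0.45 that did not pass (adjusted p = 0.24), and the mean of both gave -1.67. Chdh, the choline dehydrogenase, and Olfml2b, an extracellular olfactomedin-like protein, gave -2.89 ± 0.39 and -3.02 ± 0.44. Myl10, a myosin light chain, gave -3.23 ± 0.94, and its call held in 5 of the 16 fits without 1 array and was lost without the 3 set-apart arrays (-2.32, adjusted p = 0.28).

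The other states of the 2 organs give further values for the same genes, set against the same wild-type arrays. In marrow the difference from wild type of Hoxa9 was 2.18 in the transition state and 1.68 in senescence, and in spleen it was 5.29 in progression and 4.48 at the terminal stage. Elane stood at 0.24 and 0.36 in these marrows, and at 3.92 and 4.44 in these spleens. Adgre1 was at 1.05 and 0.89 in marrow, and at -0.46 and -0.86 in spleen. The sign in each organ was thus that of the proliferation marrow and early spleen for Hoxa9 and Adgre1, and Elane was again high in spleen. Vpreb1 was at -3.45 and -2.32 in marrow, and at 1.70 and 0.40 in spleen. Spib was at -2.53 and -1.76 in marrow, and at -2.67 and -4.35 in spleen. Cd3d was at 0.65 and 0.76 in marrow, and at -1.82 and -1.78 in spleen.

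**Figure D5:**
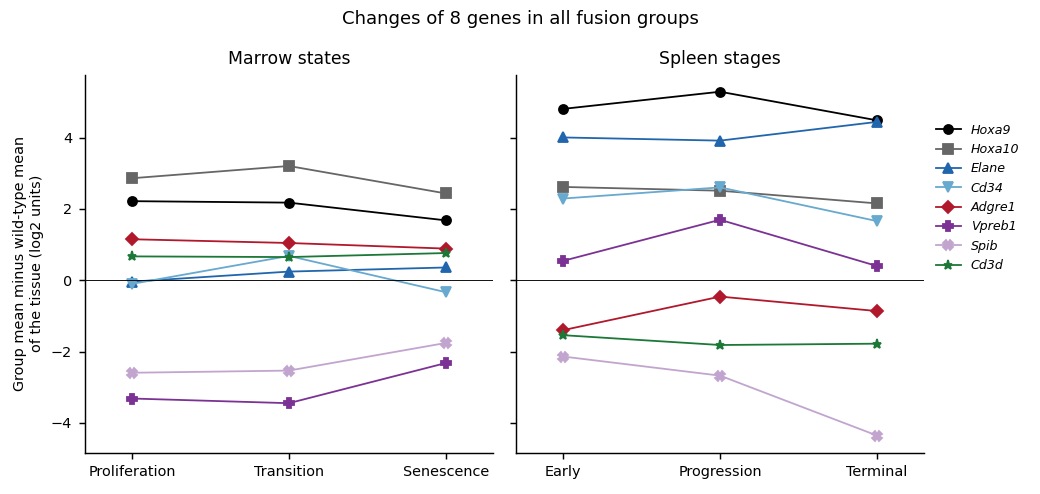
For 8 genes, each point is the mean of a fusion group minus the wild-type mean of its organ, in log2 units, for the 3 marrow states on the left and the 3 spleen stages on the right; all points of an organ share its wild-type arrays. Hoxa9 and Elane lie at 3.92 or above in every spleen stage, and Vpreb1 and Spib lie at -1.76 or below in every marrow state.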

How the data were processed

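RNA of primary bone marrow and spleen cells was hybridised to a mouse array of 22690 probe sets. The authors deposited log2 probe set summaries, and the submitters' processing notes name RMA, affy and limma. Versions, background settings and any filter are not given in the sources used here. A single gene symbol was listed for 20393 probe sets, several for 691 and none for 1606, and the probe set with the highest mean of the tissue means stood for each of 12394 genes. From these values 1 linear model with 8 groups was fitted to all 29 arrays (limma 3.58.1, R 4.3.3). Its moderated p-values were adjusted by Benjamini-Hochberg over the 12394 genes and called under 0.05. Changes are given ± their standard error, and every adjusted p is from limma. Arrays were treated as independent mice, as the labels call them biological replicates, and their number limits the precision. The 3' minus 5' difference of the Gapdh control ran from 1.50 to 1.83 among marrow arrays and from 0.03 to 1.07 among spleen arrays. The alternatives were other normalizations, filters, covariates, weights, a replicate block and fits without arrays. The fit was also run on simulated data with independent noise between arrays and changes planted in proliferation marrow alone. That run cannot speak to arrays that deviate together or to signal of other tissues. Figures were drawn with matplotlib 3.10.9.

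The genes named are, among called genes without placeholder symbols, the 14 largest differences of each sign and the 8 and 6 largest with shared and opposite directions, up to 4 members of each list with a call and a fixed set (Esr1, Kmt2a, Mllt1, 4 Hoxa genes, Meis1, Mki67, Cdkn1a, Chek1, Xist). Outside this rule Gfi1, Serpinb1a and D13Ertd608e were named after their values were seen. Members, lists and tests were chosen with earlier results of these data known. A fit of each tissue alone, the filter on bright genes and the fit without 4 arrays were added after the data were seen.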

Additional observations from a re-analysis of the deposited data

Results flagged for a closer look

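For 73 of 93 named genes the test of the difference itself found that the marrow change differed from the spleen change. Gfi1 and Serpinb1a, whose differences did not pass, are not among the 93 and not in the counts of named genes under other fits. The values below are marrow change minus spleen change in log2 units. Of these 73 calls, 54 held in all 16 fits that left out 1 array and 19 did not.

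Among granulocyte and monocyte genes the difference was -4.04 for Elane, -3.97 for Ms4a3, -3.87 for Prtn3, -3.85 for Ctsg, -3.42 for Mpo, -2.83 for F13a1, -2.69 for Cd177, -1.74 for Ltf, -1.39 for Chil3, -1.34 for Lcn2 and -0.69 for Lyz2. Among progenitor genes it was -2.66 for Prom1, -2.59 for Hoxa9, -2.39 for Cd34, -1.34 for Myb, -1.34 for Erg, 1.46 for Mef2c, 1.21 for Id2, 1.16 for Cd48 and 0.85 for Jmjd1c. Cell division genes gave -1.34 for Cdc45, -1.24 for Plk1, -1.08 for Ttk, -1.00 for Bub1b and -0.97 for Ndc80.

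Early B precursor genes gave -3.86 for Vpreb1, -3.57 for Rag1 and -2.02 for Igll1, mature B cell genes 2.27 for Fcrl1, 1.49 for Ltb and 0.81 for Cd37, and D13Ertd608e gave -1.60. T cell and cytotoxic genes gave 2.50 for Sh2d1a, 2.21 for Cd3d, 2.17 for Cd28, 1.91 for Gzmb, 1.71 for Gzmk, 1.40 for Cd8b1 and 1.22 for Cd6. Immune response genes gave 1.97 for Gbp2, 1.47 for Il18 and 1.43 for H2-DMa, and immediate early genes 1.96 for Egr2, 1.76 for Ier5, 1.51 for Klf2 and 1.31 for Btg1.

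Macrophage-associated genes gave 3.43 for Adamdec1, 3.33 for Adgre4, 2.55 for Adgre1, 2.30 for Hfe, 2.01 for Slc11a1, 1.79 for Csf1r, 1.46 for Hmox1 and 1.06 for Ctss. Mast cell and eosinophil genes gave 3.01 for Mcpt4, 2.93 for Cpa3, 2.58 for Ccr3 and 2.34 for Cma1. The p53 targets gave 2.31 for Pmaip1, 1.19 for Zmat3, 1.11 for Fas and 0.95 for Ccng1. Other genes gave 2.73 for Hpgd, 2.65 for Cdk14, 2.60 for Ptgis, 2.32 for Gpr137b, -3.96 for Dmkn, -3.25 for Orm1, -3.23 for Myl10, -3.02 for Olfml2b, -2.97 for Lin28a, -2.89 for Chdh and -2.88 for Lbp.

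Single arrays stood apart from their group in 31 of 381 tests of a gene or list mean (8.14%), and chance flags about 1 in 20. Proliferation marrow 1 stood apart with log2 levels of 12.93 for Hoxa9, 13.63 for Mki67, 7.11 for Fcrla and 8.37 for Adamdec1, and with means of 7.90 for the NK list and 10.03 for the adipocyte and muscle list. Proliferation marrow 2 stood apart for Cd3d (10.01) and proliferation marrow 4 for Marco (6.24). Proliferation marrow 3 did so for Rag1 (7.27), Hpgd (12.77), the Hoxa9 partner list (9.59) and the dendritic cell list (7.84).

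Wild-type marrow 1 stood apart for Jmjd1c (11.99). Wild-type marrow 2 did so for Id2 (11.82), Fcrla (8.54), Bach2 (8.38), Cd6 (7.24), Ptgis (8.20), Dmkn (9.82) and the early B precursor list (8.40). Wild-type spleen 1, of 24 months, stood apart for Ccng1 (9.79), Cdkn1a (7.88) and the haemoglobin list (5.70), and wild-type spleen 2 for Csf1r (12.28). Wild-type spleen 3 did so for Hoxa5 (5.20) and the adipocyte and muscle list (5.60). Wild-type spleen 5 stood apart for Bub1b (8.08), Plk1 (9.04), Cdc45 (7.05), Rag1 (4.48) and the erythroid regulator list (11.03).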

How the results depend on the processing

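The count of genes with a difference of changes, 869, was 1358 with the 16 compared arrays alone, 4136 with array weights, 379 with the replicate block, 365 without proliferation marrow 1, early spleen 1 and wild-type spleen 3 and 178 without these and wild-type spleen 5. It ran from 617 (without early spleen 1) to 982 (without wild-type spleen 1) over the fits without 1 array. Of the 869 differences, 64.9% were positive, against 51.4% after quantile normalization of all arrays together, 46.1% after scaling to a common interquartile range and 48.8% with array weights. The marrow count, 105, was 68 after quantile normalization together, 56 among genes above the median level, 421 with the compared arrays alone, 1665 with array weights, 31 with weights per tissue, 20 with the replicate block, 51 with Xist as covariate, 22 without the first 3 arrays named above, 20 without the 4 and 38 in a fit of marrow alone. Over the fits without 1 array it ran from 22 (without wild-type marrow 3) to 139 (without wild-type marrow 2), and it was 38, 30 and 33 without proliferation marrow 1, 2 and 4 and 36 and 27 without wild-type marrow 1 and 4. The spleen count, 1766, was 1099 among genes above the median level, 5485 with array weights, 1062 with the replicate block, 1141 without the 3 arrays and 878 without the 4, and 1304 to 1837 over the fits without 1 array. The cause of these moves was not tested. Some of these fits hold fewer genes or arrays, and the part of that was not tested either.

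Same-numbered arrays did not deviate together throughout (correlations from -0.16 to 0.55, 6 of 14 over 0.1). Between proliferation and wild-type marrow they were 0.21, -0.02, 0.55 and 0.42, and 1 of these 8 arrays went best with its own number, as did 2 of 6 numbered spleens. Whether same-numbered arrays share more than a number is not given in the sources used here, and the replicate block is given here alone. Under it 20 of 73 called differences of named genes missed the threshold: Id2, Jmjd1c, Cd48, Fas, Ccng1, Bub1b, Plk1, Ltb, Cd37, Hmox1, Cd6, Sh2d1a, Gzmk, Gzmb, Cpa3, Ptgis, Hpgd, Myl10, Klf2 and Il18 (adjusted p = 0.052 to 0.19). Over 3019 values of named genes under the alternatives, 2782 kept their side of the threshold, 224 lost the call and 13 gained it. None of the called differences turned its sign. Of 643 values of uncalled differences 29 did, and a turned sign alone was not counted there as a lost or gained call. The median gene stayed between -0.07 and 0.07. When 1 array was left out, calls were lost most often for Gzmb (in 14 of 16 fits, adjusted p up to 0.12), Cpa3 and Myl10 (11 each, up to 0.094 and 0.14), Hmox1 (10, up to 0.16) and Ltb (8, up to 0.11). Bub1b, Plk1, Cd37, Sh2d1a, Gzmk and Il18 lost it in 7 each and Id2 in 6. The others that lost it were Cd48, Fas, Ccng1 and Klf2, without early spleen 1 or 2, Myb and Ndc80, without early spleen 1, and Cd6, without early spleen 3. No detection calls were used, so changes of genes near background are not measured.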
